A study of Mus musculus with 4 samples.

Results

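The cytosolic ribosomal protein genes were followed through a comparison of messenger RNA in the medial prefrontal cortex (mPFC) of stressed and unstressed mice. They were taken by gene symbol alone, as every row whose symbol began with Rpl or Rps followed by a number (with an a, x or l where the name carries one), or was Rplp0, Rplp1, Rplp2 or Rpsa. This gave 81 of the 17778 genes in the table, 49 of the large subunit and 32 of the small subunit. All 77 core genes that such a symbol can name were present, together with 4 paralogs, Rpl3l, Rpl7l1, Rpl22l1 and Rps27l.

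The mice were males of C57BL/6, a common inbred strain (the substrain C57BL/6J in the study's methods), and were juvenile when the experiment began. The CUMS group (2 libraries) had been through chronic unpredictable mild stress (CUMS), a schedule of changing mild stressors, and consisted of mice that showed depression-like behavior afterwards. The control group (2 libraries) was not put through the schedule. RNA was isolated from both sides of the mPFC of each mouse, and whether each library was 1 mouse was not stated.

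The ribosome is the particle that translates messenger RNA into protein. It has a small subunit, which holds the messenger RNA and reads its codons, and a large subunit, which joins the amino acids and releases the chain through a tunnel. The ribosomal proteins are needed in near equal numbers and come from separate genes, here spread over 19 chromosomes. Most of their messenger RNAs are short, abundant and begin with a run of pyrimidines (a TOP tract, for terminal oligopyrimidine), through which the mTOR kinase and the protein Larp1 control their translation. In neurons, ribosomes lie in the cell body and in dendrites, where local translation serves synaptic plasticity.

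Each gene had 1 value per group, the mean over the libraries of the group in RPKM, that is, reads per kilobase of the gene length and per unit of library size. No value of a single library was at hand, so the spread between mice is unknown and no difference below was tested. Each difference is given as a log2 ratio, the CUMS mean divided by the control mean. Beside it stands a counting interval, the exact 95% interval that the estimated number of sequenced fragments allows. This interval covers counting error only. The estimate came to 7386000 fragments for a control library and 7440000 for a CUMS one, and the median gene stood at 5.53 and 5.34 RPKM. Background counts were taken over the 14257 genes that reached 0.5 RPKM in at least 1 group, and over the 770 that reached 100 RPKM. All 81 ribosomal protein genes reached the first limit, the lowest being Rpl3l with 0.54 RPKM in CUMS, and 75 reached the second.

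Pyrimidine tracts were looked for at the annotated transcript start, and the windows below show tracts in 7 genes. A window around an annotated transcript start was found by gene identifier for 61 of the 81 genes. In 13 of the 61, or 21.3%, the base at an annotated start was a C followed by at least 4 pyrimidines without a break. The same held for 2.87% of the other genes with at least 0.5 RPKM, 4.6% of the other genes with at least 100 RPKM and 3.01% of all genes with a window. A tract that lies off the annotated start, as in Rpl5 below, is missed by this count. The count is therefore not the share of TOP messenger RNAs. The windows printed here run from 70 bases before the annotated start to 30 bases after it, on the coding strand, from RefSeq on the build GRCm38.p6. Capitals mark the pyrimidine tract from the annotated start on, and in Rpl5 only the run CTCTTTC, which the next bases, tc, extend. Rps27, Rpl38 and Rps6 are shown because their means were lower in CUMS and because Rps6 is the target of the S6 kinases, Rpl28, Rpl35 and Rps18 because they share the tract while their ratios lay on both sides of 0, and Rpl5 because it had the highest ratio of any core gene.
Rps27, chr3:90213619-90213718, minus strand: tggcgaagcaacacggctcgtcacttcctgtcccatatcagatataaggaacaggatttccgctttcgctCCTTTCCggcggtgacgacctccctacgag
Rpl38, chr11:114668510-114668609, plus strand: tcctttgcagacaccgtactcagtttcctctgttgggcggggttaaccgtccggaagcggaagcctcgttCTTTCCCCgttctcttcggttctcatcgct
Rps6, chr4:86857338-86857437, minus strand: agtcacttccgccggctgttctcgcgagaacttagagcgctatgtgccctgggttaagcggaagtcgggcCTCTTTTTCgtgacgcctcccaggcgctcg
Rpl28, chr7:4792895-4792994, plus strand: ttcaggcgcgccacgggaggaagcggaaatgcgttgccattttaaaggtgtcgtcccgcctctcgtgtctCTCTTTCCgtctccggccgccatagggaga
Rpl35, chr2:39005102-39005201, minus strand: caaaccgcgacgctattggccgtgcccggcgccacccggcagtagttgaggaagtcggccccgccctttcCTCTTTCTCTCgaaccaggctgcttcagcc
Rps18, chr17:33955636-33955735, minus strand: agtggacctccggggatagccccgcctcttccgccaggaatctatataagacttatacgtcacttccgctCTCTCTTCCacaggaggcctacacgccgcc
Rpl5, chr5:107900458-107900557, plus strand: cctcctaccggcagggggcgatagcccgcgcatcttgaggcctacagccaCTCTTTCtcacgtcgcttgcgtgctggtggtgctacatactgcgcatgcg

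In the first 6 windows the tract begins at the annotated start itself, and it is 7 bases long in Rps27 and 11 in Rpl35. In the Rpl5 window the marked run CTCTTTC begins 20 bases before the annotated transcript start but at the first base of the gene span, 107900508. With the first base of the gene span counted as a start too, a choice made after seeing the data, Rpl5 joins the tract genes. The shares are then 23.0% (14 of 61) against 3.66%, 5.15% and 3.44%. The run CTCTTTC, which can overlap the tract, was searched on the coding strand from 50 bases before the start to 50 bases after it. It was found in 19.7% of the ribosomal protein windows, against 1.46% of the other genes with at least 0.5 RPKM, 1.65% of the other abundant genes and 1.62% of all genes with a window. The letters CCGGAA, the core that ETS family factors bind, were searched on both strands of the whole window, from 250 bases before the start to 50 after it. They occurred in 55.7% of the ribosomal protein windows and in 28.6%, 26.3% and 16.7% of those same 3 sets. ATGGCGG, the core that the factor YY1 binds, was found on either strand in 18.0% of the ribosomal protein windows, against 8.65%, 7.72% and 4.69%. GGGCGG, the core of GC boxes, was found in 62.3% against 68.3%, 72.1% and 38.2%. TATAAA on the coding strand was found in 9.84% against 5.32%, 7.9% and 9.77%. A match of these letters describes a window and is not evidence of binding.

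The ribosomal protein messenger RNAs were abundant and their levels lay close together. Among the 77 core genes the control level ran from 30.9 to 823 RPKM with a median of 251.2, and 70 of them lay between 100 and 500 RPKM. In CUMS they ran from 29.7 to 821 RPKM around a median of 251.3, and 71 genes lay between 100 and 500 RPKM. From the lower to the upper quartile the core genes spanned a 1.71-fold range in control and a 1.66-fold range in CUMS. Together the 81 genes summed to 21253 RPKM in control and 20711 RPKM in CUMS, which was 5.49% and 5.33% of the RPKM of all genes. Because the messenger RNAs are short, this corresponded to 1.53% and 1.5% of the estimated fragments.

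The highest level in both groups was that of Rplp1, one of the proteins of the stalk on the large subunit, with 823 RPKM in control and 821 RPKM in CUMS. Rpl41, the smallest protein of the large subunit, stood at 665 and 639 RPKM, and Rps15, which lies near the decoding site, at 617 and 579 RPKM. Rps29 stood at 488 and 483 RPKM and Rps21 at 453 and 442 RPKM, both of them small proteins of the small subunit. These 5 genes were the same 5 and kept the same order in both groups. Their ratios all lay below 0, but only Rps15 had a counting interval wholly below 0. The intervals of Rplp1, Rpl41, Rps29 and Rps21 included 0.

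**Figure D1:**
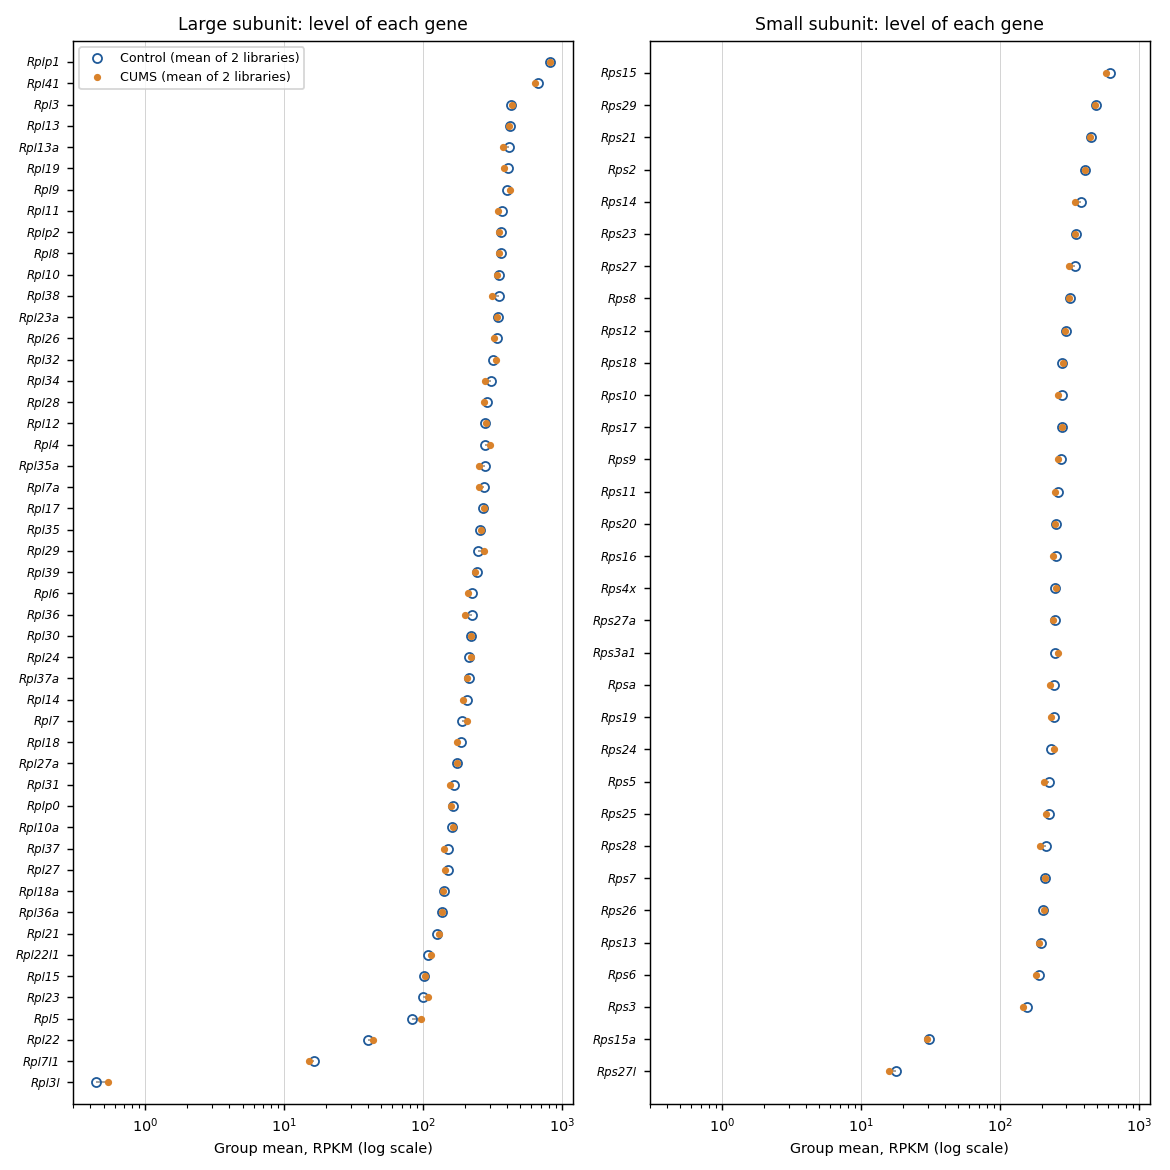
Group mean of each ribosomal protein gene in RPKM on a log axis, with large-subunit genes on the left and small-subunit genes on the right, ordered by the control mean. Open circles are control means and filled circles CUMS means, each over 2 libraries, and no error bar is drawn because only the group means were at hand. The 2 circles of a gene nearly coincide throughout, and Rpl3l, Rpl7l1, Rps27l, Rps15a and Rpl22 sit below the rest.

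The lowest levels belonged to 3 of the paralogs and to 2 core genes. Rps15a, a core protein of the small subunit, stood at only 30.9 RPKM in control and 29.7 RPKM in CUMS. Its reads had been divided by a length of 5158 bases, 8.06 times the 640 bases of its shortest annotated principal transcript, and at that shorter length its control level would be 249.3 RPKM. Rpl22 stood at 39.8 and 43.2 RPKM with a length of 2207.83 bases, against 474 bases for its shortest principal transcript, at which its control level would be 185.5 RPKM. The low place of both in the order of levels therefore moves with the length chosen. Their ratios between the groups do not depend on it.

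The level of each gene in control gave its level in CUMS almost exactly. Across the 77 core genes Pearson's r between the log2 levels of the groups was 0.995 and Spearman's rho 0.990, a description across genes that share the same libraries and lengths and are not independent replicates. Of the 81 genes, 60 (74.1%) differed by at most 0.1 on the log2 scale. Of the 695 other genes with at least 100 RPKM, 416 (59.9%) did so. The distance from the lower to the upper quartile of the ribosomal protein ratios was 0.11, against 0.16 for those other abundant genes and 0.27 for all genes compared. The closeness was not particular to the ribosome. Of 75 nuclear genes of the respiratory chain, 59 (78.7%) differed by at most 0.1, and their quartile distance was 0.10.

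The ratios leaned to the lower side. The median of the 81 log2 ratios was -0.041, against -0.015 over all genes compared and 0.024 over the other genes with at least 100 RPKM. The mean was lower in CUMS for 54 genes (66.7%) and higher for 27 (33.3%). Over all genes compared 53.2% were lower and 46.6% higher, and over all genes with at least 100 RPKM 45.3% were lower and 54.7% higher. Among the 75 ribosomal protein genes with at least 100 RPKM, 51 were lower and 24 higher.

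The size of this lean was small. Summed over the 81 genes, the estimated fragments gave a log2 ratio of -0.029 (counting interval -0.037 to -0.021). No gene had a mean more than 1.2-fold lower, where 14.6% of all genes compared and 2.99% of those with at least 100 RPKM did. Only Rpl3l was more than 1.2-fold higher, where 10.4% and 4.29% were. No ribosomal protein gene passed 1.5-fold in either direction, which 7.2% of all genes compared did.

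The counting intervals give the precision behind these ratios. The median interval reached 0.078 to either side. It lay wholly below 0 in 22 of the 81 genes, or 27.2%, against 16.8% of all genes compared and 22.9% of those with at least 100 RPKM. It lay wholly above 0 in 8 genes, or 9.88%, against 12.5% and 37.5%. In the remaining 51 genes it included 0, and a difference was not detectable at this depth.

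**Figure D2:**
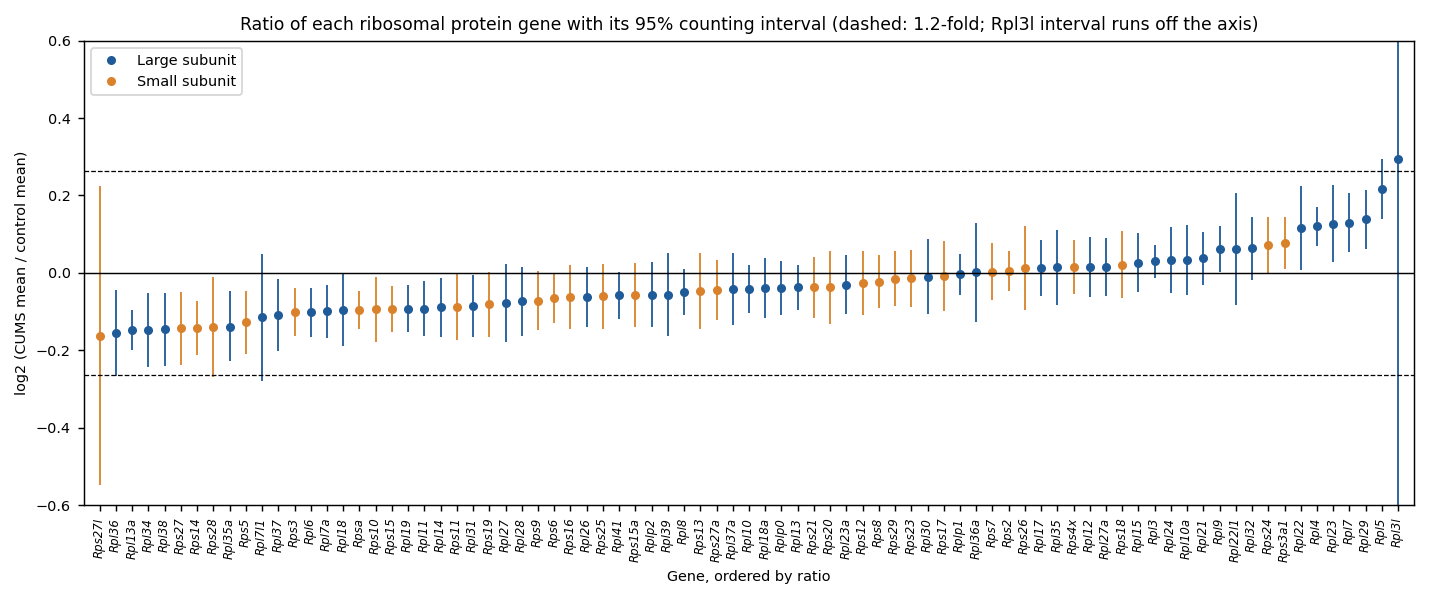
Log2 ratio (CUMS mean divided by control mean) of each of the 81 genes, ordered from lowest to highest, with its 95% counting interval as a bar and the 1.2-fold limits dashed. The bars cover counting error only, and Rps27l and Rpl3l have wide ones because few fragments were counted. Nearly all points lie between the dashed lines, with more of them below 0 than above.

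Several lists of marker genes differed between the group means, and whether both libraries of a group shared a difference is not known. The bulk values cannot tell fewer cells of a type from less RNA per cell. Neuron markers were present in both groups, and 5 of 5 were higher in CUMS, their sum running from 1274 to 1408 RPKM. Of these, Map2 and Tubb3 had ratios of 0.0016 and 0.035 with intervals that included 0. The 5 markers of neocortical excitatory neurons were also all higher, with a sum of 718 in control and 897 RPKM in CUMS. All 7 myelin markers were lower (1866 and 1266 RPKM). Markers of the septum and hypothalamus were lower in 6 of 7 compared (74.15 and 23.335 RPKM), and Pmch was higher with an interval that included 0. Of the 7, Oxt reached 0.5 RPKM in control only and Pmch in CUMS only. The listed genes Avp, Hcrt and Agrp of the same regions were also higher but stayed below 0.5 RPKM and were left out. Markers of the olfactory bulb were lower in 5 of 5 (31.0 and 12.8 RPKM) and of the striatum in 5 of 5 (283 and 245 RPKM). The olfactory bulb genes Eomes and Tbx21 reached 0.5 RPKM in control only. Red blood cell genes were higher in 5 of 5 (222 and 385 RPKM), of which Hbb-b2 reached 0.5 RPKM in CUMS only. The 4 neutrophil genes compared (0.595 and 8.26 RPKM) all reached 0.5 RPKM in CUMS only. That they were higher in CUMS therefore follows from the limit. In control each rested on at most 2 estimated fragments. Ltf, also on that list, stayed below 0.5 RPKM and was left out. Astrocyte genes (306 and 303 RPKM, 3 of 5 higher), microglia genes (128 and 135 RPKM, 3 of 5 higher) and endothelial genes (58.6 and 43.7 RPKM, 3 of 4 lower) were present in both, and the 4 choroid plexus genes summed to 1.24 and 1.60 RPKM, with their defining gene Ttr at 0.055 RPKM in control and at the value that stands for 0 in CUMS. The log2 ratio of these sums was -0.013 for astrocyte genes, closer to 0 than the -0.037 of the ribosomal protein sum, and farther from 0 for the other lists named. Their part in the small lean was not tested.

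The 5 lowest ratios were those of Rps27l, Rpl36, Rpl13a, Rpl34 and Rpl38. Rpl13a, a large-subunit protein also known for a role outside the ribosome in silencing inflammatory messenger RNAs, stood at 414 RPKM in control and 373 RPKM in CUMS. Its log2 ratio was -0.15 (-0.20 to -0.097), and the gene lies on chromosome 7 from 45125563 to 45128745 (GRCm38). Rpl36, on chromosome 17 from 56610094 to 56614246, stood at 223 and 200 RPKM, with a ratio of -0.16 (-0.27 to -0.045). Both are components of the large subunit, as are the next.

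Rpl34 had 307 RPKM in control and 277 RPKM in CUMS, a ratio of -0.15 (-0.24 to -0.053). Rpl38, a protein known for its part in the translation of Hox messenger RNAs in the embryo, had 348 and 314 RPKM, a ratio of -0.15 (-0.24 to -0.052). All 4 core genes with the lowest ratios thus lay 9.63% to 10.3% lower in CUMS, with counting intervals that do not reach 0. They were picked for their low ratios, so these intervals are not a test. Rps27l, with the lowest ratio of all, had few fragments and is described with the paralogs.

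At the other end stood Rpl3l, Rpl5, Rpl29, Rpl7 and Rpl23, all of the large subunit. Rpl5, which binds the smallest ribosomal RNA, had 82.7 RPKM in control and 96.2 RPKM in CUMS, a log2 ratio of 0.22 (0.14 to 0.30). The gene lies on chromosome 5 from 107900508 to 107909005. Rpl29 had 249 and 273 RPKM, a ratio of 0.14 (0.061 to 0.21).

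Rpl7 had 188 RPKM in control and 206 RPKM in CUMS, a ratio of 0.13 (0.053 to 0.21). Rpl23, one of the proteins that bind the p53 regulator Mdm2, had 99.6 and 109 RPKM, a ratio of 0.13 (0.028 to 0.23). Rpl3l is described with the paralogs. The core genes at the ends, Rpl36 and Rpl5, thus had log2 ratios of -0.16 and 0.22. The pair was picked as the extremes of the core genes, so their counting intervals cannot test whether they differ.

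The lean was seen in both subunits. In the large subunit 29 of 49 genes (59.2%) were lower and the median ratio was -0.039. In the small subunit 25 of 32 (78.1%) were lower and the median was -0.052. Over all genes compared 53.2% were lower. The medians differed by 0.013. Pooled fragments gave -0.018 (-0.029 to -0.0076) for the large subunit and -0.046 (-0.059 to -0.032) for the small. Counting intervals lay below 0 for 13 large-subunit genes (26.5%) and 9 small-subunit genes (28.1%), against 16.8% of all genes compared. They lay above 0 for 7 large-subunit genes (14.3%) and 1 small-subunit gene (3.12%), against 12.5% of all genes compared. The 1 small-subunit gene was Rps3a1, at 247 and 261 RPKM with a ratio of 0.077 (0.010 to 0.14). No other small-subunit gene had a higher ratio.

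By position in the particle, the stalk proteins Rplp0, Rplp1 and Rplp2, which recruit the elongation factors, were all slightly lower, with log2 ratios of -0.039, -0.0036 and -0.056. Their counting intervals all included 0. Rpl5 and Rpl11 form 1 particle with the smallest ribosomal RNA, and in free form both bind Mdm2. Rpl5 had the highest ratio among the core genes, whereas Rpl11, on chromosome 4 from 136049354 to 136053393, had 370 RPKM in control and 347 RPKM in CUMS, a ratio of -0.092 (-0.16 to -0.021). The 2 partners lay on opposite sides of 0, each with an interval that did not include it.

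Among 8 proteins at the tunnel through which the new chain leaves and at its rim, 3 were higher and 5 lower. Rpl4, which lines the tunnel, was higher, with 278 RPKM in control, 302 RPKM in CUMS and a ratio of 0.12 (0.068 to 0.17). Rpl17 and Rpl39, which also reach into the tunnel, had ratios of 0.012 and -0.056. Of the proteins at the rim, Rpl35 had 0.014, Rpl23a -0.031, Rpl26 -0.062, Rpl31 -0.087 and Rpl19 -0.093. The intervals of Rpl31 and Rpl19 lay below 0 and that of Rpl4 lay above 0.

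On the small subunit, 6 proteins at the entry, decoding and exit of the messenger RNA gave 2 higher and 4 lower means. Rps14, at the exit side, had 384 RPKM in control and 347 RPKM in CUMS, a ratio of -0.14 (-0.21 to -0.072). Rps3, at the entry, had -0.10 and Rps15, near the decoding site, -0.093, both with intervals below 0. Rps23 at the decoding site had -0.014, Rps2 at the entry 0.0054 and Rps26 at the exit 0.012, all with intervals that included 0.

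Rps6, the phosphorylation target of the S6 kinases that is widely used as a marker of mTOR signaling and of active neurons, had 189 RPKM in control and 181 RPKM in CUMS. Its ratio was -0.064, with an interval from -0.13 to 0.00041. Rps27a, which is made as a fusion with ubiquitin, had -0.045. Rpsa, also known as the laminin receptor, had 246 and 230 RPKM, a ratio of -0.096 (-0.15 to -0.046). Of the proteins at the face where the subunits join, Rpl10 had -0.041 and Rpl24 0.032.

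The 4 paralogs stand beside a core gene of the same family and are given as a share of its level. Rpl22l1 was the one paralog above its core gene, with 108 RPKM in control and 113 RPKM in CUMS, or 271% and 261% of Rpl22 at the lengths used. With the shorter Rpl22 length given above, Rpl22 would lie above Rpl22l1 in control. Rpl7l1 had 16.4 and 15.2 RPKM, which was 8.71% and 7.36% of Rpl7. Its own ratio was -0.11 with an interval from -0.28 to 0.050, and that of Rpl7 lay on the other side of 0.

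Rps27l, known as a gene that p53 induces, had 17.7 RPKM in control and 15.8 RPKM in CUMS, 5.09% and 5.02% of Rps27. Its log2 ratio of -0.16 rested on an estimated 121 and 109 fragments and had an interval from -0.55 to 0.22. Rpl3l, the form of Rpl3 found in heart and skeletal muscle, was near the limit of detection at 0.44 and 0.54 RPKM, an estimated 9 and 11 fragments. Rpl3 itself stood at 427 and 436 RPKM. The ratio of Rpl3l, 0.30, had an interval from -1.13 to 1.73, so that its place as the only member past 1.2-fold was not separable from counting error.

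Some parts of the ribosome carry names outside the symbol rule. Fau, a fusion that gives the small-subunit protein eS30, had 385 RPKM in control and 356 RPKM in CUMS, a ratio of -0.12. Gnb2l1, the scaffold protein Rack1 of the small subunit, had 155 and 143 RPKM, a ratio of -0.11. Rpl36al, a close copy of Rpl36a, had 82.3 and 89.7 RPKM, a ratio of 0.12. Fau and Gnb2l1 lay on the side to which most ribosomal protein genes leaned, with counting intervals below 0. Rpl36al lay on the other side, with an interval that included 0 (-0.032 to 0.28).

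The table also held rows for ribosomal copies and pseudogenes. Rps4y2, named here after its values were seen, had 12.7 RPKM in control and 17.3 RPKM in CUMS, a ratio of 0.45 (0.16 to 0.74). Its parent Rps4x stood at 249 and 251 RPKM, a ratio of 0.015. Among 5 rows of pseudogenes the control level ran from 0.415 to 8.94 RPKM and the ratio from -0.76 to 0.34. These copies were low beside the parent genes, and how reads were divided between copy and parent is not known.

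Shared sequence bears on every value above. Each member was matched to a GENCODE transcript, which was cut into all windows of 100 bases, and a window was called unique when no other annotated locus, pseudogenes included, held the same bases. The median share of unique windows was 64.0% and ran from 1.63% to 100%. Only 7 genes were unique throughout. For 8 genes the transcript used and the deposited length differed by more than 1.5-fold, so that their shares are approximate.

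The lowest shares were those of Rps27, with 1.63%, which shares 242 of 246 windows with the intronless copy Rps27rt, and of Rpl10, with 8.43%, which shares 641 of 700 windows with Rpl10-ps3. A read counted only where it aligned uniquely would be lost in such windows, yet Rps27 stood at 348 RPKM in control and Rpl10 at 349 RPKM. The 27 genes with under 50% unique windows had a median control level of 278 RPKM and a median ratio of -0.031. The other 54 genes had 245 RPKM and -0.052. Across the 77 core genes the unique share had a Spearman's rho of -0.15 with the level and of -0.041 with the ratio, a description across genes of the same libraries. Levels of single genes are thus uncertain to the extent that copies were counted with them.

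**Figure D3:**
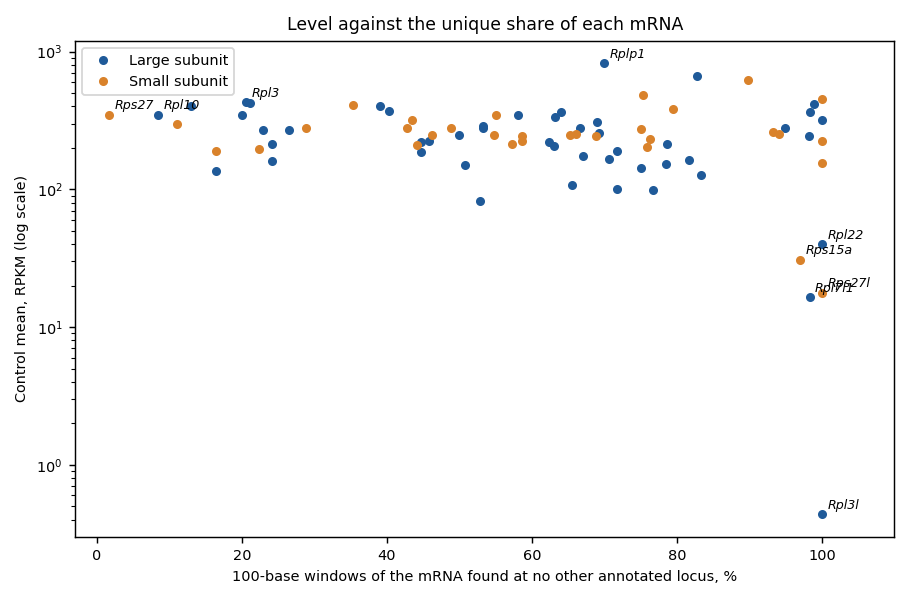
Control mean in RPKM (log axis) of each ribosomal protein gene against the share of its 100-base windows that no other annotated locus holds, in percent. Each point is 1 gene, blue for the large and orange for the small subunit. Rps27 at 1.63% and Rpl10 at 8.43% lie at the same level as genes that are unique throughout.

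Gene length moved with the ratio. Of the 18 ribosomal protein genes shorter than 500 bases 14 were lower in CUMS and the median ratio was -0.056. From 500 to 700 bases the median was -0.045 (20 genes), from 700 to 1000 bases -0.041 (23 genes), from 1000 to 2000 bases -0.017 (16 genes), and above that 0.029 (4 genes). The other genes with at least 100 RPKM gave medians of -0.045, -0.019, -0.0012, 0.031 and 0.035 in the same 5 classes, with 16 genes in the shortest. Of those 16 genes 13 were lower, the same side as most ribosomal protein genes. After the trend on length and level over all genes compared had been taken out, the median of the 81 genes was -0.029 and 39.5% were higher, where 50% of all genes compared were higher after the same step. The part of length in the lean was not tested.

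**Figure D4:**
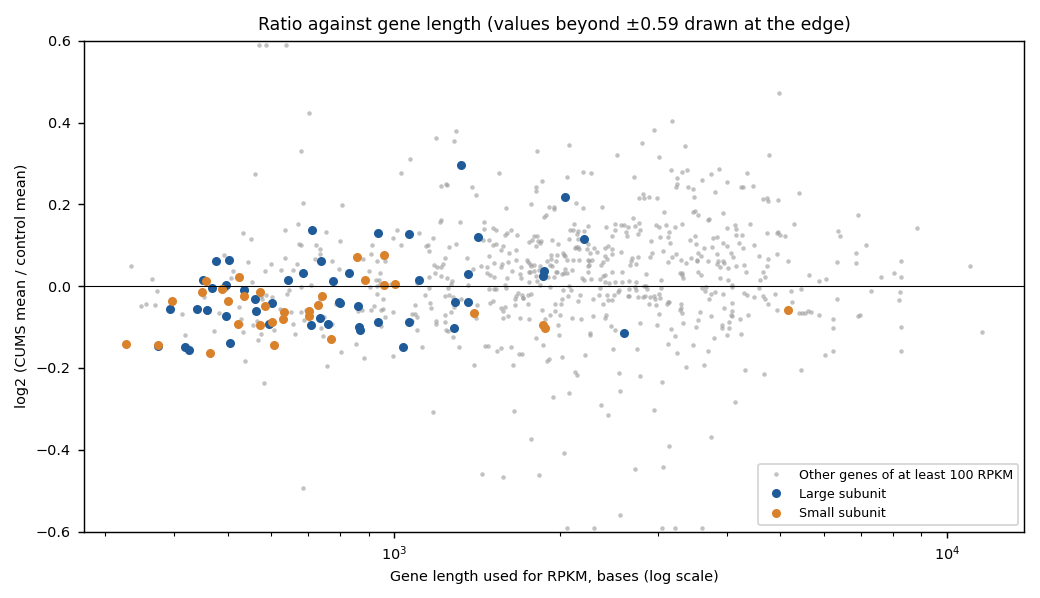
Log2 ratio (CUMS mean divided by control mean) against the gene length used for RPKM, in bases on a log axis. Each point is 1 gene, blue for the large subunit, orange for the small subunit and grey for the other genes with at least 100 RPKM, and ratios beyond the axis are drawn at its edge. Most ribosomal protein genes are shorter than 1000 bases and lie within 0.2 of 0.

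The start tract was set beside the ratio as well. The 13 genes with a tract at the annotated start had ratios from -0.15 to 0.026 with a median of -0.064, and 10 of them were lower. With Rpl5 among them, by the start of its gene span, the median of the 14 is -0.061 and the upper end of the range moves to 0.22. The 48 genes whose window showed no tract at the annotated start, Rpl5 among them, had ratios from -0.16 to 0.30. Their median was -0.045, and 30 were lower. This split follows the annotated starts and does not separate TOP messenger RNAs from others. The 34 genes with CCGGAA in the window had a median of -0.071 with 25 lower, and the 27 without it -0.025 with 15 lower. The 12 genes with CTCTTTC had a median of -0.059 with 8 lower, and the 49 without it -0.056 with 32 lower. None of these splits was tested. The windows printed above belong to genes at -0.14 (Rps27), -0.15 (Rpl38), -0.064 (Rps6), -0.073 (Rpl28), 0.014 (Rpl35), 0.022 (Rps18) and 0.22 (Rpl5), on both sides of 0.

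Other TOP messenger RNAs were split between both sides. Of 15 such genes outside the ribosome 7 were higher and 8 lower, with a median of -0.0051. The translation elongation factors, most of them TOP messenger RNAs, gave 2 higher and 5 lower of 7, with a median of -0.076. Eef2, which moves the ribosome along, had 532 RPKM in control and 483 RPKM in CUMS, a ratio of -0.14 (-0.17 to -0.11).

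Eef1b2, an exchange factor, had 72.7 RPKM in control and 65.9 RPKM in CUMS, a ratio of -0.14 (-0.23 to -0.052). The exchange factor parts Eef1d and Eef1g had -0.076 and -0.054, and Eef1e1, a part of the synthetase complex, had -0.078, each with an interval that included 0. The forms that bring aminoacyl-tRNA to the ribosome lay above 0. Eef1a1 had 1240 and 1273 RPKM, a ratio of 0.038, and Eef1a2, the form of mature neurons and muscle, had 550 and 575 RPKM, a ratio of 0.065.

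The other gene groups of translation, and 2 groups of other abundant complexes, had medians between -0.030 and 0.078. Of 54 genes with symbols of initiation factors, regulators with such a symbol included, 36 were higher and 18 lower, with a median of 0.032. Of 30 ribosome assembly factors 16 were higher and 14 lower, with a median of 0.0042, and of 11 genes of RNA polymerase I, which makes the ribosomal RNA precursor, 8 were higher and 3 lower, with a median of 0.078. The mitochondrial ribosome is a separate particle encoded by other genes, and 43 of its 76 genes were higher and 33 lower, with a median of 0.011. The proteasome gave 23 higher and 14 lower of 37, with a median of 0.0086. The nuclear genes of the respiratory chain, many of them short and abundant as well, gave 25 higher and 50 lower of 75 with a median of -0.030.

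Of 20 genes that control translation 11 were higher and 9 lower, with a median of 0.014. Past 1.2-fold lay 2 higher and 2 lower genes, 10.0% each way, which is no larger than the 10.4% and 14.6% of all genes compared. Rictor, the defining part of the second mTOR complex, was lower at 3.20 RPKM in control and 2.44 RPKM in CUMS, a ratio of -0.39 (-0.60 to -0.19). Eif4ebp2, the main brain form of the repressors of cap-dependent translation that mTOR inactivates, was lower at 19.3 and 15.4 RPKM, a ratio of -0.33 (-0.52 to -0.14). Both lay beyond any core ribosomal protein gene.

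Eif4ebp1, another repressor of the same family, was higher at 3.18 RPKM in control and 4.99 RPKM in CUMS, a ratio of 0.65 (0.10 to 1.22). Eif2ak2, the kinase that halts initiation on double-stranded RNA, was at 0.535 and 0.745 RPKM, a ratio of 0.48 with an interval from -0.18 to 1.17. Mtor itself had -0.12 (-0.20 to -0.045) and Larp1 0.015 (-0.064 to 0.093). The list thus held ratios on both sides of 0.

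**Figure D5:**
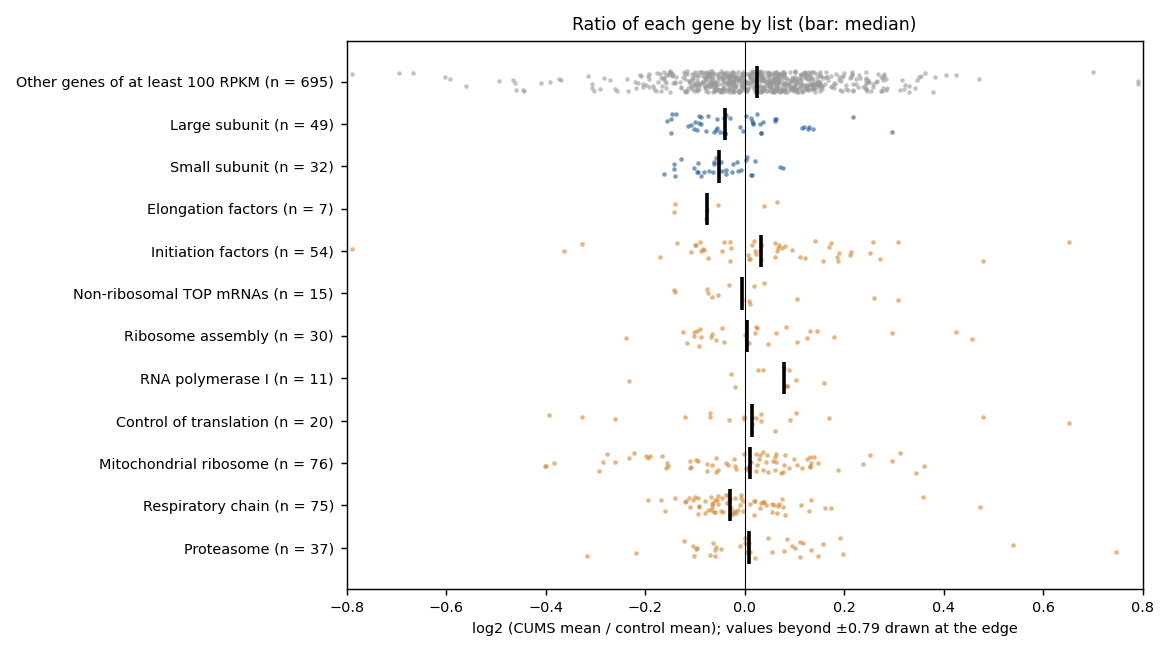
Log2 ratio (CUMS mean divided by control mean) of each gene, by list, with the median of the list as a black bar and ratios beyond the axis drawn at its edge. Each point is 1 gene and n is the number with at least 0.5 RPKM in either group. The 2 subunits form narrow clouds with medians of -0.039 and -0.052, whereas the other genes with at least 100 RPKM spread more widely around 0.024. The respiratory chain genes form a cloud about as narrow, with a median of -0.030.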

How the data were processed

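Poly(A) RNA of the mPFC was sequenced as paired reads (2 control and 2 CUMS libraries). Per the labels and the methods of the study, reads were trimmed with SolexaQA and aligned to mm10 with TopHat 1.0.12 and Bowtie 0.11.3, and uniquely aligned reads were counted, with versions as the submitters' processing notes give them. The annotation and the use of strand are not given in the sources used here, so reads of overlapping genes and near-identical copies may be mixed. The deposited values are RPKM, which the authors averaged over the libraries of each group, and the gene length (in bases) used for RPKM. The authors also deposited a log2 ratio and a probability score of their own comparison, which were not used. A mean of 0.01 stood for 0 in 590 control and 619 CUMS genes.

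The groups follow the sample labels. Nothing could be tested across libraries, because the table gives 1 mean per group, so limma was not run. Log2 ratios were taken without a pseudocount for genes that reached 0.5 RPKM in at least 1 group. Depth was estimated from genes under 1000 bases with a product of RPKM and length under 350, where 1 fragment adds a fixed step (67.7 in control, 67.2 in CUMS, searched from 20 to 200). Of 406 and 392 such products 86.5% and 86.2% came within 0.15 of whole multiples of the step, against 29.8% and 33.7% with lengths shuffled. The estimate falls short of the sequencing depth stated in the study, for reasons not resolved here. Exact Clopper-Pearson 95% intervals were computed from it and cover counting error only. PCR duplicates could not be removed. The interval code was tested on simulated data.

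Coordinates are RefSeq spans on GRCm38.p6, matched by gene identifier for all 81 genes. GENCODE M21 gave the transcripts for the 100-base windows, which were also compared with up to 3 mismatches (median unique share 40.3%). Named were the 5 highest and 5 lowest ratios and levels, the paralogs with their core genes, the members by role, ribosome parts outside the symbol rule (1 of which is not reported here), the elongation factors and the genes of translation control past 1.2-fold. Tsc1 at -0.26 lay just inside that limit, and Mtor and Larp1 were named beside them. The members and lists were chosen with earlier results of these data known. Python 3.11.15, numpy 2.4.6, pandas 2.3.3, scipy 1.17.1, statsmodels 0.14.6 and matplotlib 3.10.9 were used. Alternatives changed the level minimum, the scaling, the pseudocount, the fold, a correction for length and level, and the membership.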

Additional observations from a re-analysis of the deposited data

How the results depend on the processing

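No paired analysis was possible because only the 2 group means per gene were at hand, and for the same reason no library could be left out in turn. The median log2 ratio of the ribosomal protein genes was -0.041, and under 9 alternatives it ran from -0.052 to -0.026, below 0 in each. The level minima, the equal total, the pseudocount and leaving out the paralogs kept it at -0.041. Those choices barely touch genes this abundant. The share of genes with a higher mean was 33.3% and ran from 31.5% to 39.5% under 8 alternatives. Rescaling all CUMS values to a median ratio of 0 gave -0.026 and 39.5%, and rescaling to an equal total shifted every ratio by only -0.000066. Large-subunit genes had a median 0.0083 to 0.023 above small-subunit genes under 4 alternatives. The number of ribosomal protein genes past the fold limit was 1, Rpl3l, and became 12 at 1.1-fold, 0 at 1.5-fold and 0 when at least 5 RPKM in either group was required, which leaves out Rpl3l. The share of all genes past 1.1-fold was not computed, so the 12 cannot be set against a background. The alternative that kept the 54 genes with at least 50% unique windows was chosen after seeing the data, as was the count of a start tract at the first base of the gene span. The spread between mice is unknown, and a larger true depth would narrow every counting interval.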
